A study of Mus musculus with 38 samples.

Results

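The genes that make, break down and bind hyaluronan were followed through mouse kidney tumours driven by MYC, cell lines from such tumours, and normal kidney. Their members are the 9 rows of the expression table whose symbol is Has1, Has2, Has3, Hyal1, Hyal2, Cd44, Hmmr, Tnfaip6 or Vcan, out of 21705 genes. The rule uses the symbols alone. The 38 libraries fall into 10 groups. MYC tumours (3 libraries) carry a doxycycline-inducible Tet-O-MYC transgene that is switched on in renal tubule cells by rtTA under the Ksp cadherin promoter. VM tumours (3 libraries) also carry floxed Vhl alleles deleted by a tamoxifen-inducible KspCreERT2, and VIM tumours (3 libraries) are in addition germline null for Ink4a/Arf (Cdkn2a). All tumours were maintained on Dox. Normal kidney (5 libraries) is wild type and received vehicle, with 2 kidneys labelled B6 and 3 labelled KT. The cells are 1 line per genotype, MYC-2983, VM-3055 and VIM-3039, with 4 libraries maintained on 2 µg per ml Dox and 4 with Dox withdrawn, collected 24 h after plating, so line and genotype cannot be told apart. Of the MYC tumour libraries, 2 come from mouse 2983 and 1 from mouse 2917. The labels name no age, and nothing says that the 4 libraries of a cell group came from separate cultures, so p-values there measure only the spread between those libraries.

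Hyaluronan is a long, unsulphated sugar polymer of the extracellular matrix. It is extruded at the plasma membrane by the synthases Has1, Has2 and Has3, which draw on UDP-glucuronic acid and UDP-N-acetylglucosamine, is cut at the cell surface by Hyal2 and in lysosomes by Hyal1, and is bound by the receptors Cd44 and Hmmr (RHAMM) and by the matrix proteins versican (Vcan) and TSG-6 (Tnfaip6). In kidney it is richest in the interstitium of the medulla, and it accumulates around injured tubules and in many carcinomas.

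Promoter windows of the members were searched for short letter strings. MYC binds E-boxes (CACGTG), and the factor stabilized when Vhl is lost binds ACGTG or GCGTG. Genes of the late cell cycle often hold CCAAT boxes and a CHR element (TTTGAA), and AP-1 binds TGANTCA. Windows of 250 bases before to 50 after the start were found for 7 of the 9 members in RefSeq (GRCm38.p6), and no entry was found for Has2 and Has3. Both strands were searched for each of these letter strings, and ACGTG was also counted inside CACGTG. None of the 7 windows held CACGTG, against 7.15% of all 32851 windows in the same table. The windows of Cd44, Hmmr and Tnfaip6 are shown as examples, chosen together with the strings marked in them. Has1, Hyal1 and Vcan, like Cd44 and Tnfaip6, fell with Dox in some of the lines, and their windows are not shown. Capitals mark ACGTG in Cd44, CCAAT and TTTGAA in Hmmr, and CCAAT and TGANTCA in Tnfaip6, on either strand.
Cd44, chr2:102901616-102901915, minus strand: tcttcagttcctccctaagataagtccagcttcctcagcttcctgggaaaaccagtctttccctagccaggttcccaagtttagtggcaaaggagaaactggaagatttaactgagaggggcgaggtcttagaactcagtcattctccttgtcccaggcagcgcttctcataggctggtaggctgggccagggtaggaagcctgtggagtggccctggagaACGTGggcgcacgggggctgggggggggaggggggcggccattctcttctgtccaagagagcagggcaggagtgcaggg
Hmmr, chr11:40733388-40733687, minus strand: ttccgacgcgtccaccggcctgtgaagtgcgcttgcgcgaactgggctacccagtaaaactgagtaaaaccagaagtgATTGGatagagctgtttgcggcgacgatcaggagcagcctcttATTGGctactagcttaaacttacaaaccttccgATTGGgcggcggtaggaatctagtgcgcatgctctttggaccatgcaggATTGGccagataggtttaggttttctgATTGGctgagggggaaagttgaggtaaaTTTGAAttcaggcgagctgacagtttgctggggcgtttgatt
Tnfaip6, chr2:52037863-52038162, plus strand: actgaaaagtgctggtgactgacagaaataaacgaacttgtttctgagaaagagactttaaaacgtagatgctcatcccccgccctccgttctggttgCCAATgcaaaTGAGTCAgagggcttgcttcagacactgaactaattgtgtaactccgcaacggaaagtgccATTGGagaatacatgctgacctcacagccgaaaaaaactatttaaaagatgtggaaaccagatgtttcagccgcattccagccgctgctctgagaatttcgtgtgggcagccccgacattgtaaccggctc
The Hmmr window held 5 CCAAT strings and 1 TTTGAA string, and 37.4% and 17.9% of all windows hold at least 1 of them. CCAAT stood in 5 of the 7 windows, in Has1, Hyal1 and Vcan once and in Tnfaip6 2 times. TTTGAA was otherwise found once, in Has1. ACGTG was found in Cd44 alone and GCGTG in Hyal2 alone (19.6% and 32.4% of all windows), and TGANTCA in Tnfaip6 alone (7.81%). These are matches of letters and say nothing of binding, and their part in the response to Dox was not tested.

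Levels are given in units, RSEM estimates that the authors scaled to an upper quartile of 1000 per library. A level of 3 reads, worth 1.16 to 5.65 units depending on the library, was taken as the floor under which a gene is barely detected, and the libraries hold an estimated 8.22 to 36.6 M reads. Groups were compared with limma on log2(units + 1). The threshold was a Benjamini-Hochberg adjusted p under 0.05 over all genes tested together with an absolute log2 change over 1, and only genes that passed are said to rise or fall. The engineered genes were read first. In cells with Dox, Vhl stood at 13.1 ± 2.07 units (SD, n = 4) for VM-3055 and 12.7 ± 4.01 for VIM-3039, against 451 ± 12.2 for MYC-2983. Cdkn2a was 29.98 ± 4.09 units for VIM-3039 against 3171 ± 102 for MYC-2983 and 3804 ± 360 for VM-3055. In tissue, Vhl was 53.6 ± 22.8 units in VM and 252 ± 51.7 in VIM tumours (n = 3) against 499 ± 52.3 in MYC tumours and 686 ± 69.0 in normal kidney (n = 5), and Cdkn2a ranged from 30.1 to 95.5 units in VIM, 59.3 to 2872 in MYC and 3392 to 4347 in VM tumours. The Myc row was lower in the libraries labelled with Dox than in those without it in each line, for example 381 ± 34.2 against 1479 ± 65.4 units in VIM-3039 cells. Whether reads of the transgene fall on that row is not given in the sources used here, so it does not check the Dox labels. Of 8 kidney tubule markers, Slc34a1, Umod and Aqp2 were at or under the floor in every cell library, while the list as a whole summed to 8699 to 22692 units per cell library, 9628 to 25827 per tumour and 222588 to 313750 per normal kidney.

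**Figure D1:**
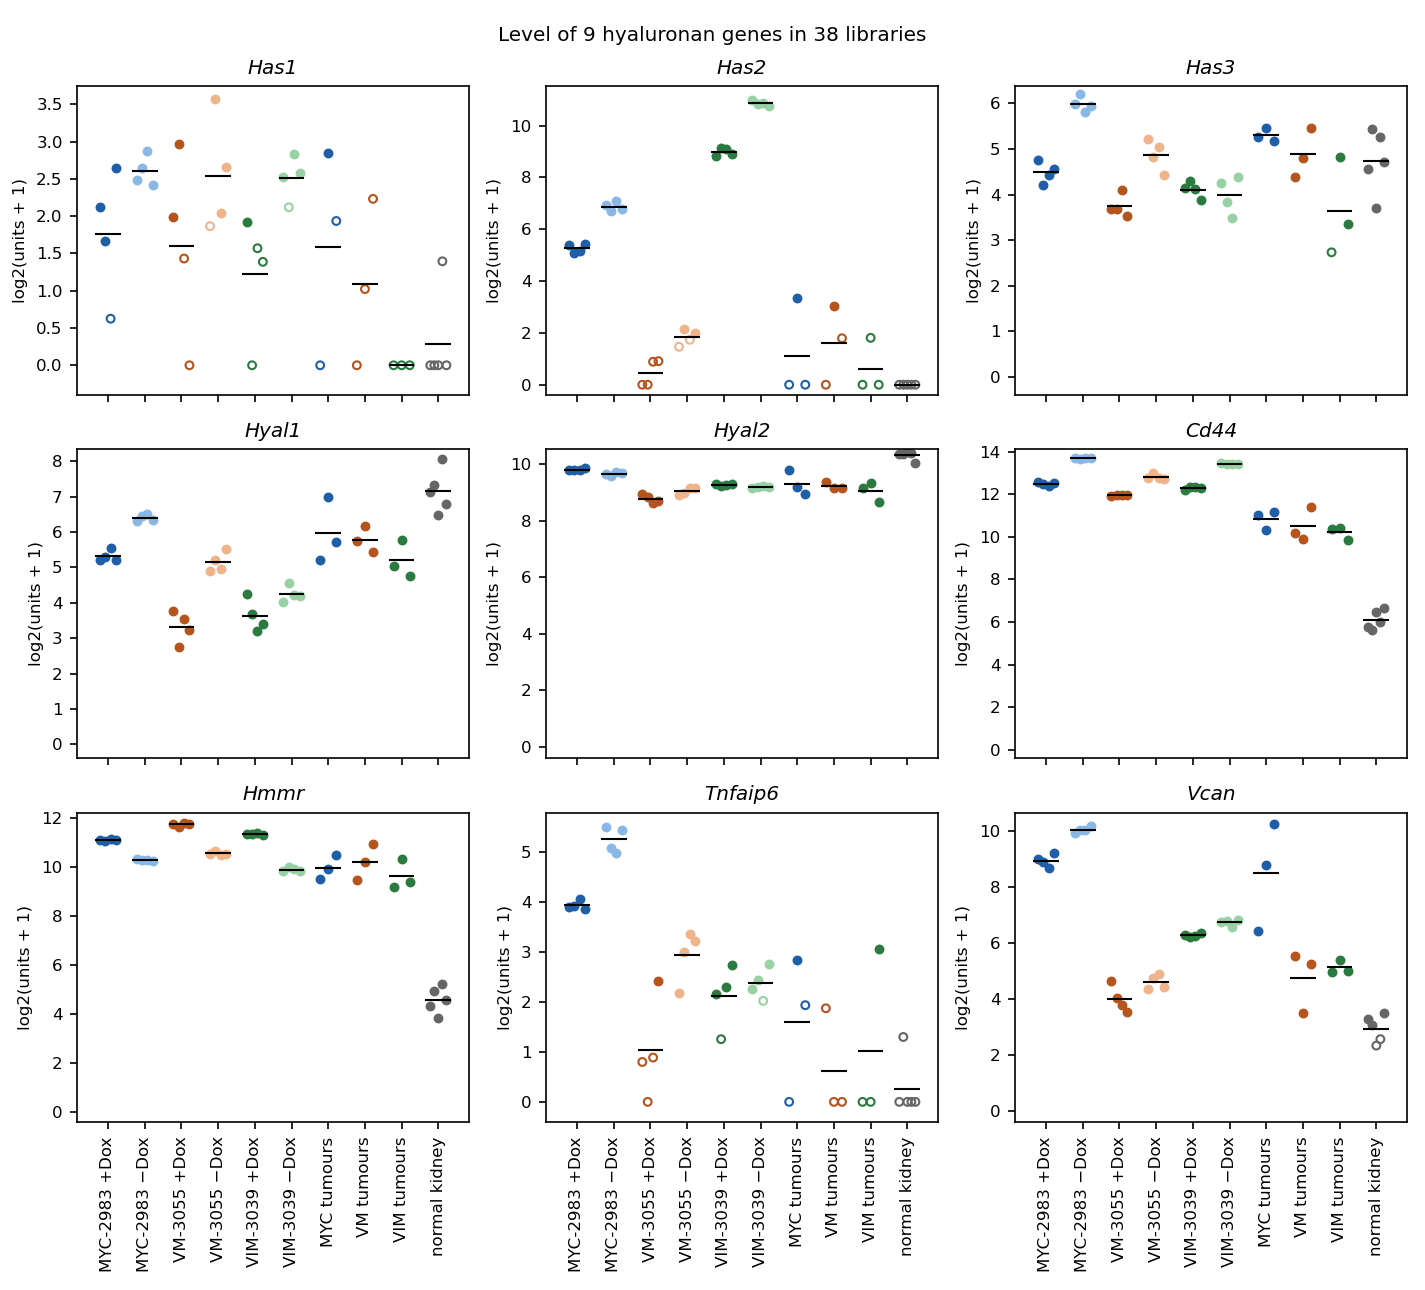
Level of each of the 9 genes in all 38 libraries, as log2(units + 1), with 1 panel per gene and 1 column per group; each point is a library, open points are at or under the floor of 3 reads, and black lines are group means of the log2 values. Has2 spans from 0 in all 5 normal kidneys to 1754 to 2021 units in VIM-3039 cells without Dox, whereas Hyal2 stays between 389 and 1369 units in every library.

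Has2, the main synthase of most mesenchymal and many tumour cells, varied most among the members. The gene lies at chr15:56497182-56526094 of mm9 on the minus strand, has 1 annotated transcript of 4 exons, and overlaps the antisense gene Has2as, which did not exceed 3.80 units in any library. VIM-3039 cells without Dox held 2021, 1833, 1852 and 1754 units of Has2, and those with Dox 455, 564, 553 and 476 units. MYC-2983 cells held 123, 103, 134 and 108 units without Dox and 41.4, 32.6, 34.7 and 42.5 with Dox. In both lines every library with Dox was below every library without it. VM-3055 cells stood apart, with 1.76, 3.49, 2.33 and 3.04 units without Dox and 0, 0, 0.849 and 0.877 with Dox, the last 4 all at or under the floor.

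With Dox, Has2 fell by 1.60 on the log2 scale in MYC-2983 cells (SE 0.121, adjusted p = 7.74e-10), a level 3.09-fold lower, and by 1.87 in VIM-3039 cells (SE 0.0594, adjusted p = 2.54e-17), a level 3.64-fold lower. VM-3055 cells also passed at -1.40 (SE 0.394, adjusted p = 0.00397), but at a handful of reads per library. In the main fit the 3 responses were not shown to differ. The difference was -0.26 between VIM-3039 and MYC-2983 (95% CI -0.54 to 0.01, adjusted p = 0.107), 0.21 between VM-3055 and MYC-2983 (-0.51 to 0.92, adjusted p = 0.658) and -0.47 between VIM-3039 and VM-3055 (-1.08 to 0.13, adjusted p = 0.233). The last 2 rest on VM-3055 values at or near the floor and depend on the pseudocount. With a pseudocount of 10 in limma they were 1.13 (adjusted p = 1.05e-06) and -1.57 (adjusted p = 1.71e-08), both past the threshold. Between lines with Dox, Has2 was 13.5-fold higher in VIM-3039 than in MYC-2983 cells (log2 difference 3.73, SE 0.104, adjusted p = 3.98e-13) and at least 194-fold higher than in VM-3055 cells, a bound set by the highest floor among the VM-3055 libraries. From RNA sequencing of these lines, the paper had already named Has2 among the genes most raised in VIM-3039 over VM-3055 cells. The contrast of that pair is therefore not independent of the paper. The order of the lines was the same without Dox, with differences of 3.99 against MYC-2983 and 9.02 against VM-3055 cells. In tissue Has2 was above the floor in 2 of 14 libraries, at 9.26 units in a MYC tumour of mouse 2983 and 7.22 units in the VM tumour of mouse 3055, and it was listed at 0 in all 5 normal kidneys.

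Has3, which makes shorter chains, was present at low to moderate levels in every group. Its locus is chr8:109394142-109406802 of mm9 on the plus strand, with 4 exons. MYC-2983 cells held 62.3, 73.0, 54.98 and 60.9 units without Dox and 26.3, 17.4, 20.6 and 22.5 with Dox, without overlap. In VM-3055 cells the values were 36.2, 27.5, 31.8 and 20.5 without Dox and 11.8, 11.9, 16.1 and 10.5 with Dox, again without overlap. Has3 therefore fell with Dox by 1.50 in MYC-2983 (SE 0.150, adjusted p = 4.04e-08) and by 1.13 in VM-3055 cells (SE 0.222, adjusted p = 0.000175). VIM-3039 cells behaved otherwise, with 18.03, 13.4, 10.2 and 19.9 units without Dox and 16.7, 18.7, 16.4 and 13.7 with Dox, a difference of 0.12 (95% CI -0.39 to 0.63, adjusted p = 0.671). The Dox response of VIM-3039 cells differed from that of MYC-2983 cells by 1.62 (SE 0.285, adjusted p = 6.35e-05) and from that of VM-3055 cells by 1.25 (SE 0.332, adjusted p = 0.00565). Has1, at chr17:17980292-17992152 of mm9, was the faintest synthase. It lay between 0 and 10.9 units in the 24 cell libraries and did not exceed 6.17 units in tissue. Its Dox change passed only in VIM-3039 cells (-1.29, SE 0.420, adjusted p = 0.00844), where 3 of the 4 libraries with Dox were at or under the floor and the change was -0.89 (adjusted p = 0.0466) without replicate 2 of them. Has1 was -0.84 in MYC-2983 and -0.94 in VM-3055 cells and did not pass there, but reached -1.14 (adjusted p = 0.00794) and -1.39 (adjusted p = 0.0209) without replicate 4 of MYC-2983 and replicate 2 of VM-3055 with Dox.

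Summed per kilobase of their longest transcript, the 3 synthases reached 419.8 to 482.4 units per kb in VIM-3039 cells without Dox, above the 304.8 to 318.0 units per kb of Hyal1 and Hyal2 together in the same libraries. In the other 9 groups every library had more hyaluronidase than synthase transcript per kb. VIM-3039 cells with Dox came next, with 111 to 136 units per kb of synthases, followed by MYC-2983 cells without Dox at 37.8 to 44.0 and with Dox at 11.7 to 16.3. VM-3055 cells, tumours and normal kidney lay between 0.956 and 12.4 units per kb. Has2 made up 96.3% to 99.1% of the synthase sum in VIM-3039 cells and 61.3% to 72.0% in MYC-2983 cells, but at most 10.7% in VM-3055 cells and 25.3% in any tissue library. Has3 was the largest of the 3 in every tissue library and in 6 of the 8 VM-3055 libraries, and Has1 was the largest in replicate 2 with Dox and replicate 2 without Dox of VM-3055. These are RNA levels, and enzyme activity and hyaluronan itself were not measured in this table.

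**Figure D2:**
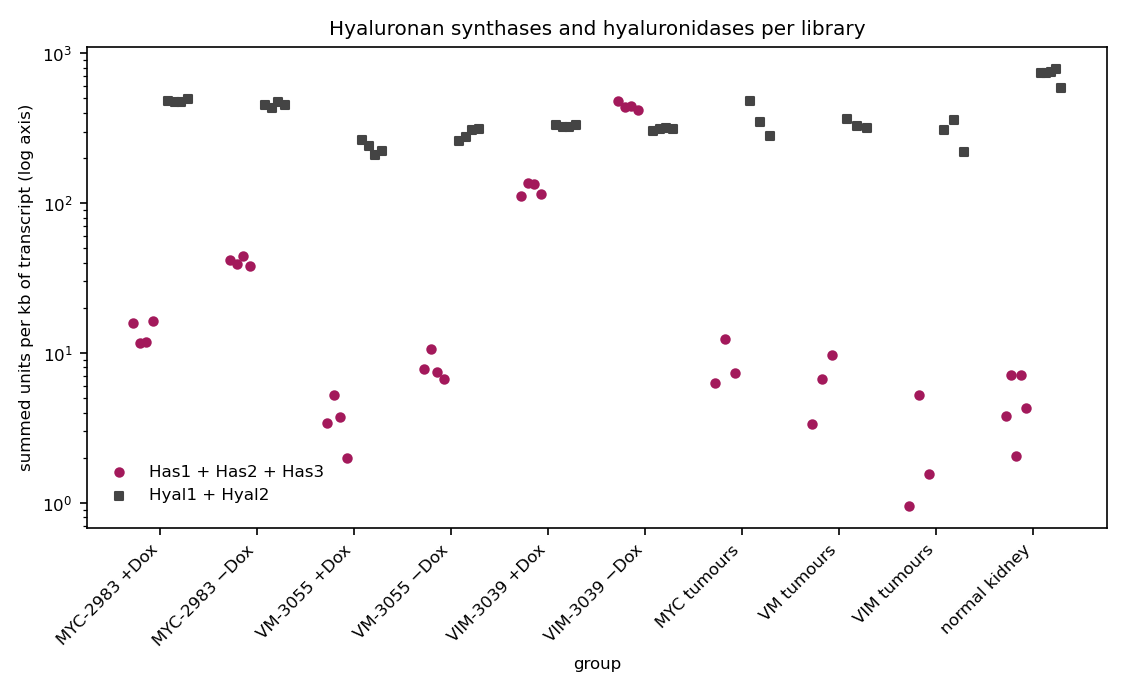
Summed transcript level per kb of the synthases (circles) and of the hyaluronidases Hyal1 and Hyal2 (squares) in each library, by group, on a log axis. The circles lie above the squares in 1 group, VIM-3039 cells without Dox, and lie between 0.956 and 12.4 units per kb in VM-3055 cells and tissue.

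Hyal2, the surface-anchored enzyme that cuts long hyaluronan into fragments, supplied 87.9% to 99.2% of the hyaluronidase sum in every library. It lies at chr9:107471448-107475107 of mm9 and is followed on the same strand by Hyal1 at chr9:107479258-107485174, which overlaps Nat6 and Hyal3, so that reads of Hyal1 may be shared with these. In normal kidney Hyal2 ranged from 1046 through a median of 1304 to 1369 units and in the cells from 389 to 914 units. Dox moved it little, from 805 ± 31.3 to 884 ± 20.03 units for MYC-2983, from 527 ± 44.4 to 437 ± 44.7 for VM-3055 and from 578 ± 9.62 to 614 ± 9.95 for VIM-3039 cells (SD, n = 4). None of these changes exceeded 0.27 in size on the log2 scale, although that in MYC-2983 (0.14, adjusted p = 0.0015) and that in VM-3055 (-0.27, adjusted p = 0.0043) had an adjusted p under 0.05. With Dox, Hyal2 was lower in VM-3055 than in MYC-2983 cells by a log2 difference of -1.02 (SE 0.0607, adjusted p = 2.3e-09), just past the threshold, and -0.97 or -0.997 without replicate 3 or replicate 4 of the VM-3055 libraries. It did not pass under TMM rescaling (-0.88), quantile normalization (-0.87) or limma voom (-0.99), nor between the same lines without Dox (-0.61).

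Hyal1, the lysosomal hyaluronidase, was much more variable. MYC-2983 cells held 79.0, 86.7, 89.5 and 79.8 units without Dox and 35.8, 38.6, 45.7 and 36.3 with Dox. VM-3055 cells held 28.7, 35.97, 30.2 and 44.7 units without Dox and 12.6, 5.79, 10.6 and 8.48 with it. The groups did not overlap in either line, and Hyal1 fell with Dox by 1.08 (SE 0.116, adjusted p = 9.65e-08) in MYC-2983 and by 1.82 (SE 0.242, adjusted p = 2.15e-06) in VM-3055 cells. In VIM-3039 cells 15.3, 22.6, 17.8 and 17.4 units without Dox overlapped 17.9, 11.98, 8.17 and 9.49 with Dox, and the change of -0.62 (adjusted p = 0.0348) did not pass. The responses of VIM-3039 and VM-3055 cells differed by 1.20 (SE 0.364, adjusted p = 0.0143), a value of 0.99 (adjusted p = 0.0367) without the first VIM-3039 library with Dox.

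Cd44, the principal cell surface receptor for hyaluronan, lies at chr2:102651298-102741822 of mm9 with 14 annotated transcripts that the table does not separate. MYC-2983 cells held 13316, 12803, 13107 and 13225 units without Dox and 6032, 5703, 5299 and 5884 with Dox. VIM-3039 cells held 11216, 10992, 11100 and 10949 units without Dox and 4714, 5220, 5237 and 4959 with it. In both lines the libraries with Dox were well apart from those without, and Cd44 fell by 1.20 (SE 0.0339, adjusted p = 6.17e-16) and by 1.14 (SE 0.0339, adjusted p = 8.66e-18). VM-3055 cells went from 7050, 8241, 6879 and 6786 units to 3846, 4023, 4002 and 4026, a change of -0.86 (SE 0.055, adjusted p = 1.17e-10) that stayed under the threshold of 1. Its response differed from that of MYC-2983 cells by 0.34 (SE 0.0702, adjusted p = 0.000507) and that of VIM-3039 from VM-3055 cells by -0.28 (SE 0.0685, adjusted p = 0.00325), while VIM-3039 and MYC-2983 cells differed by 0.06 (95% CI -0.05 to 0.16, adjusted p = 0.371). Lines with Dox differed in Cd44 by at most 0.53 in size.

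Hmmr, which binds hyaluronan and also acts at the mitotic spindle, moved the other way. It lies at chr11:40514890-40546939 of mm9. MYC-2983 cells had 1280, 1240, 1231 and 1189 units without Dox and 2195, 2095, 2214 and 2203 with Dox, a change of 0.82 (SE 0.0293, adjusted p = 1.54e-14) that stayed under the threshold. VM-3055 cells had 1463, 1615, 1423 and 1461 units without Dox and 3404, 3154, 3568 and 3418 with Dox, and VIM-3039 cells 916, 1004, 947 and 911 without and 2552, 2553, 2616 and 2517 with Dox. With no overlap in any line, Hmmr rose by 1.18 (SE 0.0499, adjusted p = 4.02e-13) in VM-3055 and by 1.44 (SE 0.0362, adjusted p = 5.76e-19) in VIM-3039 cells. The response differed between lines, by 0.37 between VM-3055 and MYC-2983 (SE 0.0588, adjusted p = 3.07e-05), by 0.62 between VIM-3039 and MYC-2983 (SE 0.0455, adjusted p = 2.87e-10) and by 0.25 between VIM-3039 and VM-3055 cells (SE 0.062, adjusted p = 0.00284). Of 10 mitosis genes, 1, 5 and 7 rose with Dox in the 3 lines in the order MYC, VM and VIM, among them Kif11 by 1.05 in MYC-2983, Cdk1 by 1.20 in VM-3055 and Ccnb1 by 1.51 in VIM-3039 cells, and the median change of the list was 0.63, 1.004 and 1.15 against -0.13, -0.26 and -0.15 for all genes tested.

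Tnfaip6 encodes TSG-6, the secreted enzyme that transfers heavy chains onto hyaluronan (chr2:51893529-51912206 of mm9). It stood at 44.6, 32.9, 30.7 and 42.4 units in MYC-2983 cells without Dox and at 13.98, 14.1, 15.7 and 13.6 with Dox, and fell by 1.32 (SE 0.167, adjusted p = 9.77e-07). VM-3055 cells had 3.53, 6.98, 9.30 and 8.36 units without Dox against 0.739, 0, 0.849 and 4.39 with Dox, where 3 of 4 libraries were at or under the floor and the groups overlapped in 1 library, and the change of -1.91 (SE 0.453, adjusted p = 0.000991) passed. VIM-3039 cells held 1.39 to 5.81 units in all 8 libraries, with a change of -0.26 (95% CI -1.03 to 0.51, adjusted p = 0.533). The difference of this response from that of MYC-2983 cells was 1.05 (adjusted p = 0.0257) and from that of VM-3055 cells 1.65 (adjusted p = 0.0351). Both are fragile, since the first did not pass without any one of 5 libraries (0.85 to 0.99, adjusted p 0.0468 to 0.0624) and the second without any one of 11 (adjusted p 0.052 to 0.0858).

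Vcan, the large proteoglycan that binds hyaluronan through its N-terminal domain, lies at chr13:89794915-89882117 of mm9 and had the widest spread between lines after Has2. MYC-2983 cells held 974, 1042, 1050 and 1153 units without Dox and 508, 470, 410 and 593 with Dox, without overlap. VIM-3039 cells held 107, 109, 94.9 and 113 units without and 76.4, 72.8, 75.5 and 80.0 with Dox. VM-3055 cells held 19.4, 25.98, 28.7 and 20.5 units without and 23.6, 15.3, 12.7 and 10.5 with Dox, where the groups overlapped. Vcan fell with Dox in MYC-2983 cells by 1.10 (SE 0.0777, adjusted p = 2.8e-10), while the changes of -0.62 in VM-3055 (adjusted p = 0.0303) and -0.47 in VIM-3039 cells (adjusted p = 0.000704) did not pass. With Dox, Vcan was lower than in MYC-2983 cells by a log2 difference of -4.95 in VM-3055 (SE 0.196, adjusted p = 3.43e-11) and -2.67 in VIM-3039 cells (SE 0.0943, adjusted p = 4.53e-12), and higher in VIM-3039 than in VM-3055 cells by 2.28 (SE 0.207, adjusted p = 5.56e-08). Markers of fibroblasts and mural cells were highest in the same line as Vcan, but did not follow its order in the other lines. Their 8 genes summed to 8879 to 9873 units in MYC-2983 cells with Dox, nearly all of it Postn at 9292 ± 438 units, against 94.2 to 123 units for VM-3055 and 77.0 to 110 for VIM-3039 with Dox, where Dcn, Lum and Thy1 were at or under the floor in every library. Without Dox the sums were 27427 to 28680, 698 to 776 and 345 to 402 units. Their part in the Vcan levels was not tested.

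Counted over the 9 members, all of which passed the filter on low values in the cell fits, 6 passed with Dox in MYC-2983 cells, all lower (Has2, Has3, Hyal1, Cd44, Tnfaip6, Vcan), where 19.5% of all genes tested passed, 4.49% higher and 15% lower. In VM-3055 cells 5 passed, Hmmr higher and Has2, Has3, Hyal1 and Tnfaip6 lower, against 24.8% of all genes, 5.92% higher and 18.9% lower. In VIM-3039 cells 4 passed, Hmmr higher and Has1, Has2 and Cd44 lower, against 24.3% of all genes, 7.67% higher and 16.6% lower. The median change of the members was -1.10, -0.94 and -0.47, and that of all genes tested -0.13, -0.26 and -0.15. The effect of TMM rescaling on the median was taken over smaller sets of 10912, 10420 and 10461 genes. In these sets the median moved up by 0.11, 0.21 and 0.15, from -0.056, -0.17 and -0.088. TMM rescaling left 4, 4 and 3 members past the threshold. Those lost were Hyal1 (-0.97) and Vcan (-0.99) in MYC-2983, Has3 (-0.93) in VM-3055 and Cd44 (-0.99) in VIM-3039 cells. Quantile normalization left out Hyal1 (-0.69) and Tnfaip6 (-0.80) in MYC-2983, Has2 (-0.97) and Has3 (-0.34) in VM-3055 and Has1 (-0.90) in VIM-3039 cells. Of the responses, 0 members differed past the threshold between VM-3055 and MYC-2983 cells in limma (8.78% of all genes), with 4 at an unadjusted p under 0.05 and 0 in limma voom on recovered reads, 2 between VIM-3039 and MYC-2983 (9.06%) and 3 between VIM-3039 and VM-3055 cells (6.05%). Between lines with Dox, 5 members were lower in VM-3055 than in MYC-2983 cells (24.6% of all genes, with 6.54% higher and 18.1% lower), namely Has2, Hyal1, Hyal2, Tnfaip6 and Vcan. VIM-3039 against MYC-2983 cells gave Has2 higher and Hyal1, Tnfaip6 and Vcan lower (23.9%, with 5.66% higher and 18.3% lower), and VIM-3039 against VM-3055 cells Has2 and Vcan higher (19.1%, with 9.69% higher and 9.45% lower). Without Dox the counts were 5, 5 and 2 in the same order (24.9%, 26.2% and 21.7%). These comparisons share their libraries, since each line enters several of them. The number that ends each label restarts for MYC-2983 cells but runs on from VM-3055 to VIM-3039 cells. What it stands for is not given, and its part in the differences was not tested. Libraries with Dox held an estimated 24.8 to 26.9 M reads for MYC-2983, 14.4 to 17.3 M for VM-3055 and 15.9 to 19.9 M for VIM-3039.

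**Figure D3:**
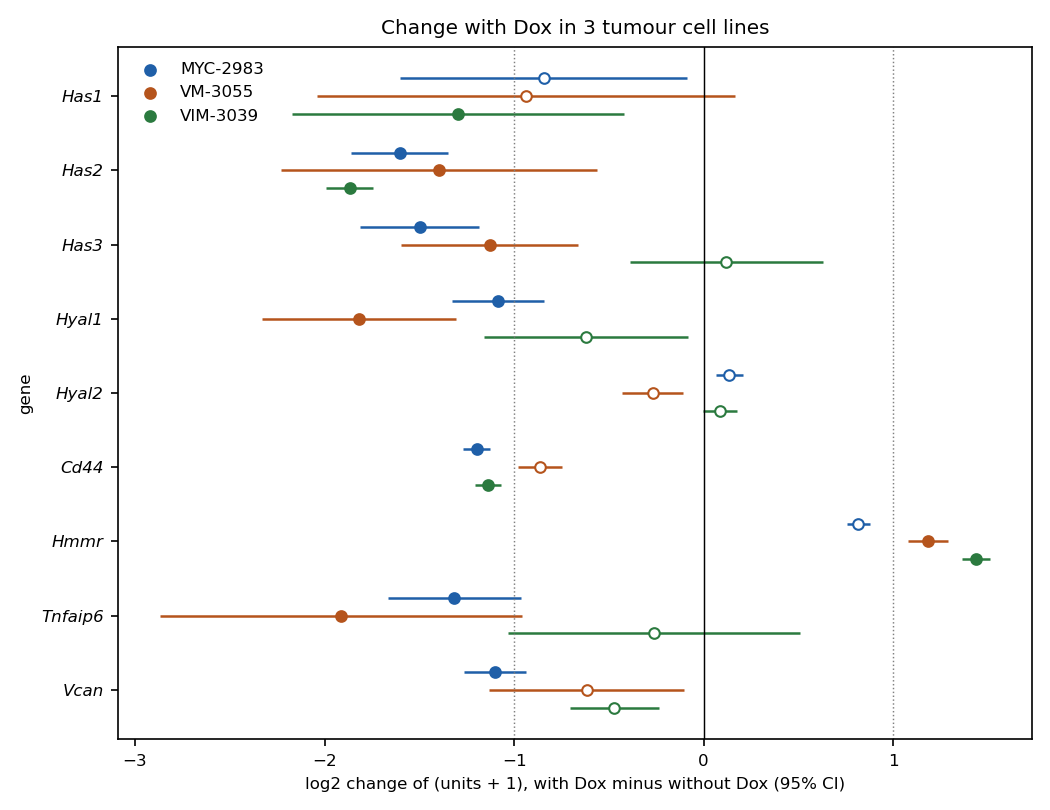
Change of log2(units + 1) between libraries with and without Dox for each gene in the 3 lines, with 95% confidence intervals from limma (n = 4 against 4); filled points passed the threshold, open points did not, and dotted lines mark a change of 1 in size. Hmmr lies to the right in all 3 lines, at 0.82, 1.18 and 1.44, Cd44 and Has2 lie to the left in all 3, and Has3 is near 0 in VIM-3039 cells alone (0.12).

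Other genes of the hyaluronan pathway were read from lists. Of their genes, the largest Dox change was that of 9930013L23Rik, an older symbol of Cemip, whose product depolymerizes hyaluronan independently of the Hyal enzymes. It went from 1041 ± 33.5 to 148 ± 18.8 units with Dox for MYC-2983, from 375 ± 20.5 to 29.1 ± 3.97 for VM-3055 and from 403 ± 31.02 to 57.5 ± 3.07 for VIM-3039 cells (SD, n = 4), log2 changes of -2.81, -3.65 and -2.79 (adjusted p = 7.84e-17, 1.12e-14 and 3.2e-17). Hexa, a subunit of a lysosomal enzyme that trims hyaluronan fragments, fell in MYC-2983 (-1.04) and VIM-3039 cells (-1.56) and was near absent from VM-3055 cells, at no more than 0.849 units in any library with Dox and 4.65 without, whereas the VM tumours held 766 to 1927 units. Gusb, the lysosomal glucuronidase of the same route, was also low in VM-3055 cells, at 229 ± 10.8 units with Dox against 2438 ± 112 in MYC-2983 and 2709 ± 37.9 in VIM-3039 cells. In all, 3 of 6 tested genes of breakdown fell with Dox in each line, where 15%, 18.9% and 16.6% of all genes tested fell in the MYC, VM and VIM lines, and Hyal4, Spam1, Hyal5 and Hyal6 were at or under the floor in every group.

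Among 8 genes that make the UDP-sugar precursors, 2 of 8, 0 of 7 and 1 of 8 tested fell with Dox in the MYC, VM and VIM lines and none rose, beside 15%, 18.9% and 16.6% of all genes lower. Their median changes were -0.50, -0.66 and -0.54, against -0.13, -0.26 and -0.15 for all genes tested. They were Uap1 (-1.01) and Uap1l1 (-1.05) in MYC-2983 and Ugp2 (-1.24) in VIM-3039 cells. Of the other receptors, 3 of 5 tested genes fell in MYC-2983 (15% of all genes) and 2 of 3 in both VM-3055 (18.9%) and VIM-3039 cells (16.6%). Tlr2, an innate immune receptor that responds to hyaluronan fragments, fell in all 3 (-1.68, -1.87 and -2.44), and Tlr4 in MYC-2983 (-1.31) and VM-3055 cells (-1.15). The scavenger receptor Stab1 and the lymphatic receptor Lyve1 were at or under the floor in all cell libraries. Among partners of CD44, Spp1 (osteopontin, a further CD44 ligand) fell in MYC-2983 (-1.22) and VM-3055 cells (-2.07). So did Msn (moesin, which links CD44 to actin, -1.14 and -1.08). In VIM-3039 cells Spp1 went from 72042.5 to 36556.8 units with Dox, a change that did not pass. Of the 7 listed partners and splicing factors of CD44, 2, 2 and 0 fell and 1, 0 and 1 rose in the MYC, VM and VIM lines. Of all genes tested, 15%, 18.9% and 16.6% fell and 4.49%, 5.92% and 7.67% rose. Esrp1, a splicing factor that acts on Cd44 exons, was 256 ± 13.7 units with Dox for VM-3055, 71.2 ± 3.91 for VIM-3039 and 14.4 ± 7.89 for MYC-2983. Esrp2, also listed as a splicing factor, was highest in MYC-2983 instead, at 252 units with Dox against 78.1 for VM-3055 and 128 for VIM-3039. Esrp2 rose with Dox in VIM-3039 cells (1.20). Of 16 genes for link proteins, other hyalectans and heavy chains, 2 of 11, 2 of 9 and 2 of 6 tested fell and 0, 0 and 1 rose, where 15%, 18.9% and 16.6% of all genes fell, so that the first and second of these shares are near the background. The heavy chain genes Itih3 and Itih4 fell in VIM-3039 cells (-2.16 and -2.09).

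**Figure D4:**
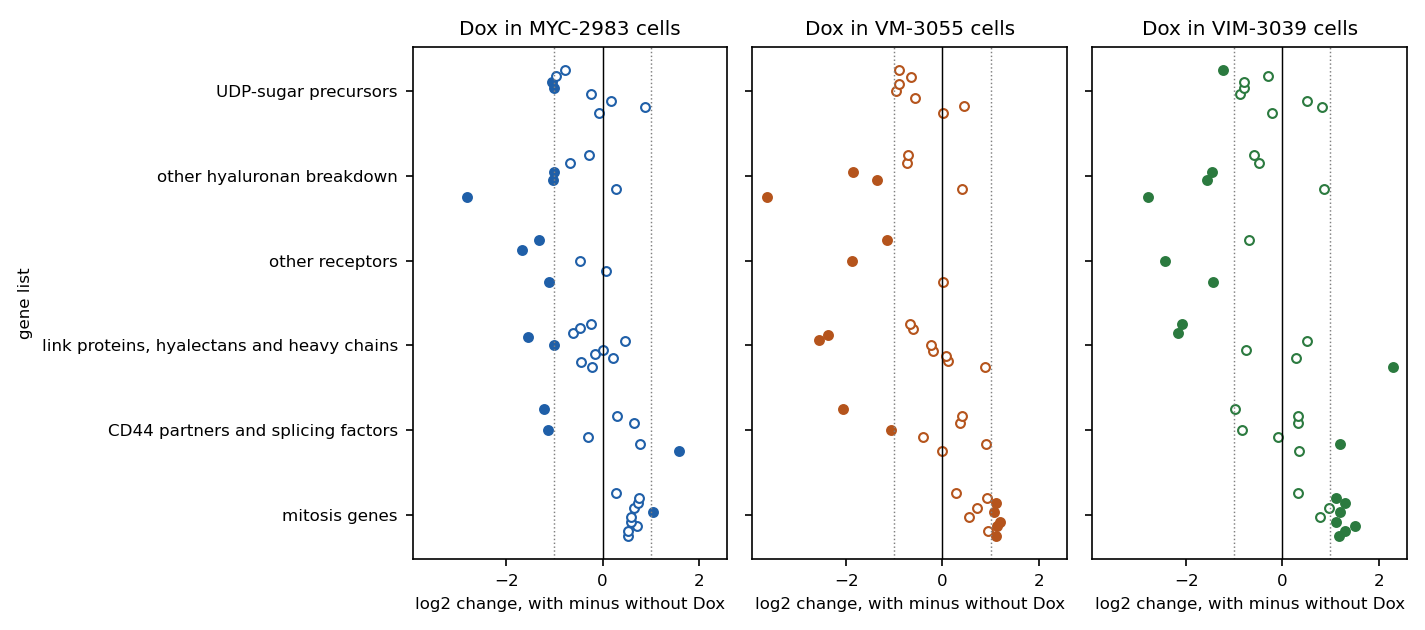
Change of log2(units + 1) with Dox for each tested gene of 6 lists in the 3 lines; each point is a gene, filled where it passed the threshold, and dotted lines mark a change of 1 in size. The point farthest to the left in each panel is 9930013L23Rik (-2.81, -3.65 and -2.79), and every one of the 10 mitosis genes lies to the right of 0.

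Tumours were set against normal kidney next. Cd44, Hmmr and Vcan rose and Hyal1 fell in all 3 genotypes, and Hyal2 fell in VM and VIM tumours. Cd44 was 53.6, 48.2, 88.4, 63.5 and 98.7 units in normal kidney, against 2052, 1281 and 2274 in MYC, 1148, 957 and 2746 in VM and 1341, 1368 and 938 in VIM tumours. Every tumour exceeded every kidney, and the log2 changes were 4.77 (SE 0.321, adjusted p = 2.09e-05), 4.39 (SE 0.378, adjusted p = 1.02e-05) and 4.12 (SE 0.292, adjusted p = 6e-06). Leukocytes also carry CD44. The 8 leukocyte markers summed to 3452 to 16026 units in MYC, 2289 to 7977 in VM and 7687 to 14365 in VIM tumours against 1356 to 2357 in normal kidney. In the cell lines, which hold 3846 to 13316 units of Cd44, the list summed to 218 to 1013 units. Emr1 and Cd3e were at or under the floor in every cell library, but other markers were detected. Csf1r stood at 859 units without and 349 with Dox in VM-3055 cells. The part of leukocytes in the Cd44 levels was not tested. Lyz2 alone averaged 4903, 3033 and 7586 units in MYC, VM and VIM tumours against 355 in normal kidney. Of the 8 leukocyte markers 4, 3 and 4 rose and 0, 2 and 1 fell, with Ptprc falling in VM tumours (-2.29). Of all genes tested, 18.7%, 17.3% and 18.9% rose and 18.5%, 22.5% and 20.7% fell. In bulk tissue, fewer or more cells of a type and less or more RNA per cell cannot be told apart.

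Hmmr was 19.03, 29.2, 13.4, 35.8 and 22.8 units in normal kidney and 724, 963 and 1411 in MYC, 700, 1160 and 1945 in VM and 574, 1290 and 668 in VIM tumours, again without overlap. It rose by 5.27 (SE 0.432, adjusted p = 5.08e-05), 5.61 (SE 0.413, adjusted p = 3.81e-06) and 5.06 (SE 0.398, adjusted p = 9.86e-06). All 10 mitosis genes rose in each genotype, with medians of 5.63, 5.57 and 5.07 against 0.08, -0.05 and 0.01 for all genes tested. Vcan was 8.65, 7.30, 4.02, 4.89 and 10.1 units in normal kidney, 2 of them at or under the floor, and 45.3, 10.3 and 36.99 in VM and 30.1, 41.4 and 31.2 in VIM tumours. In MYC tumours it was 84.9 units in mouse 2917 and 435 and 1220 in mouse 2983, the mouse whose line held 410 to 1153 units. Vcan rose by 5.03 (SE 0.781, adjusted p = 0.00104) in MYC, 1.82 (SE 0.56, adjusted p = 0.0192) in VM and 2.19 (SE 0.416, adjusted p = 0.00165) in VIM tumours. The VM value did not pass against the KT kidneys alone (1.73, adjusted p = 0.0731), against the B6 kidneys alone (1.96, adjusted p = 0.104), or without VM tumour replicate 1 (1.44, adjusted p = 0.067) or replicate 3 (1.58, adjusted p = 0.0695). The fibroblast and mural list, which summed to 1313 to 4295 units in normal kidney, was 9455 in the MYC tumour with 435 units of Vcan and 1017 in the one with 1220, and its part in the Vcan levels was not tested.

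Hyal1 was 139, 161, 88.6, 268 and 109 units in normal kidney, against 36.1, 127 and 51.9 in MYC, 52.5, 71.1 and 42.5 in VM and 32.1, 54.3 and 26.1 in VIM tumours. VM and VIM tumours did not overlap normal kidney and 1 MYC tumour did. Hyal1 fell by 1.37 (SE 0.481, adjusted p = 0.0415) in MYC, 1.38 (SE 0.383, adjusted p = 0.012) in VM and 1.96 (SE 0.41, adjusted p = 0.00281) in VIM tumours. The MYC value was no longer past the threshold without MYC tumour replicate 1 or 3 or without normal kidney replicate 1, 2 or 4, with changes of -0.80 to -1.38 and adjusted p of 0.0664 to 0.308. It also did not pass under quantile normalization, a pseudocount of 10, no filter, limma voom, separate libraries of mouse 2983 or the KT kidneys alone (adjusted p 0.0504 to 0.0951), and the VM value did not pass under quantile normalization (-1.09, adjusted p = 0.0503). Against the B6 kidneys alone Hyal1 did not pass in any genotype (-1.02, -1.02 and -1.61, adjusted p = 0.199, 0.125 and 0.0598). Hyal2 was 880, 580 and 494 units in MYC, 655, 570 and 572 in VM and 561, 642 and 400 in VIM tumours, all below the 1046 units of the lowest kidney. It fell by 1.08 (SE 0.132, adjusted p = 9.44e-05) in VM and 1.27 (SE 0.182, adjusted p = 0.000305) in VIM tumours, and was -0.88 (adjusted p = 0.0071) in MYC tumours, where it passed at -1.24 (adjusted p = 0.00263) without the tumour of mouse 2917, a fit that leaves 1 MYC sample, assumed to vary like the kidneys. Among the 8 kidney tubule markers, 6, 6 and 7 fell and 1 rose in MYC, VM and VIM tumours against normal kidney. The shares over all genes tested were 18.5%, 22.5% and 20.7% lower and 18.7%, 17.3% and 18.9% higher. The part of these markers in the levels of Hyal1 and Hyal2 was not tested.

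The synthases and Tnfaip6 were faint in tissue. Has3 was 12.05 to 42.3 units in normal kidney with a median of 25.3, 35.3 to 43.2 in MYC, 19.97 to 43.2 in VM and 5.65 to 27.6 in VIM tumours, and its changes of 0.56, 0.15 and -1.10 did not pass, the last with adjusted p = 0.14 and, without the second VIM tumour, -1.70 with adjusted p = 0.0277. Has2 passed in VM tumours at 1.61 (SE 0.607, adjusted p = 0.0459), with values of 0, 7.22 and 2.47 units against 5 kidneys at 0, and did not pass without any one of the kidneys (adjusted p 0.0708 to 0.0762). Has1 and Tnfaip6 were at or under the floor in every normal kidney and above it in 1 MYC tumour each, at 6.17 units, and for Tnfaip6 in 1 VIM tumour at 7.34 units. Their changes in MYC tumours did not pass, but did without the tumour of mouse 2917 (2.11, adjusted p = 0.0359 for Has1 and 2.13, adjusted p = 0.0287 for Tnfaip6), a fit that leaves the mouse-2983 tumours as a single sample.

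Of the 9 members, 8, 9 and 7 passed the filter on low values in the MYC, VM and VIM fits, Has2 being left out in MYC and Has1 and Has2 in VIM tumours. Past the threshold in MYC tumours were 3 members higher and 1 lower (37.3% of all genes tested, 18.7% higher and 18.5% lower). VM tumours had 4 higher and 2 lower (39.8%, with 17.3% higher and 22.5% lower), and VIM tumours 3 higher and 2 lower (39.6%, with 18.9% higher and 20.7% lower). Between the genotypes limma called 0 of 9 members in each of the 3 comparisons, where 0%, 0.00613% and 0.249% of all genes passed for VM against MYC, VIM against MYC and VIM against VM tumours. At an unadjusted p under 0.05 the counts were 1, 1 and 0, and limma voom on recovered reads also gave 0, 0 and 0. The member below 0.05 was Vcan both times, at -3.21 (95% CI -5.82 to -0.59, adjusted p = 0.31) in VM and -2.84 (-5.04 to -0.65, adjusted p = 0.283) in VIM against MYC tumours, with intervals too wide to place the size. For Cd44 the intervals of the 3 differences ran from -1.45 to 0.70, -1.31 to 0.03 and -1.17 to 0.63.

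**Figure D5:**
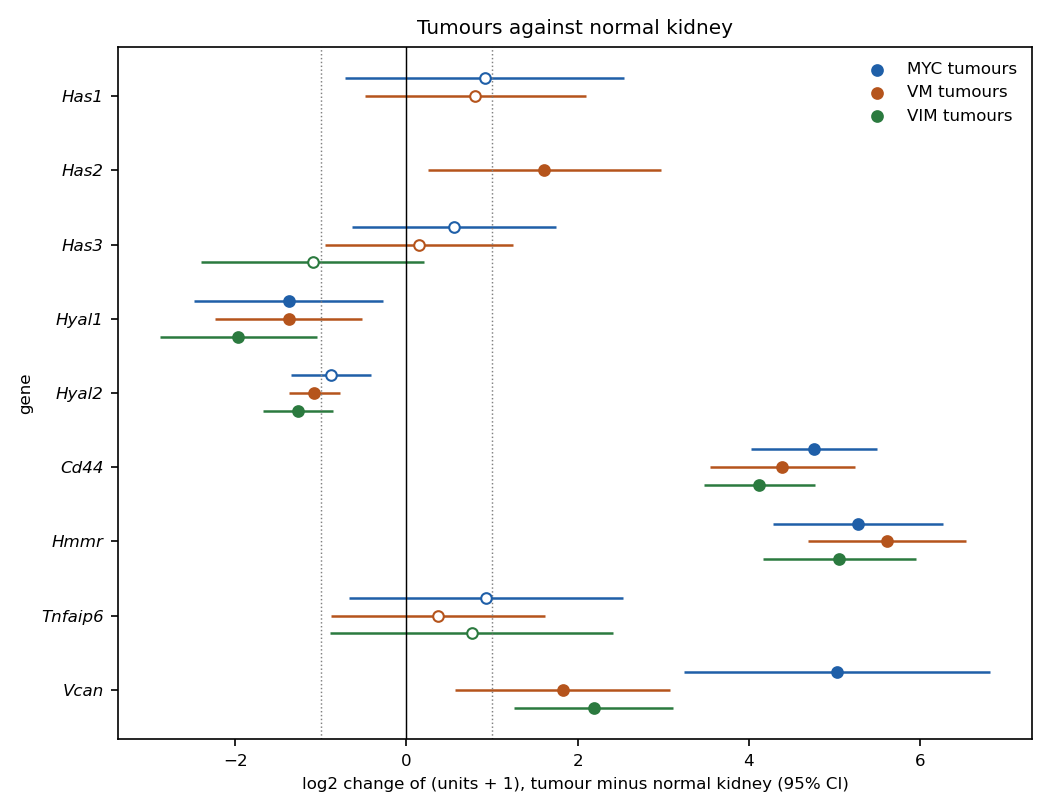
Change of log2(units + 1) between tumours of each genotype and normal kidney for each gene, with 95% confidence intervals from limma (2 mice for MYC, 3 tumours for VM and VIM, 5 kidneys); filled points passed the threshold, and genes detected in too few libraries have no point. Cd44 and Hmmr lie between 4.12 and 5.61 in all genotypes, Hyal1 between -1.96 and -1.37, and Vcan is at 5.03 in MYC tumours against 1.82 and 2.19.

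Of the pathway lists in tissue, Tlr2 rose by 3.28, 2.47 and 1.65 and Spp1 by 3.52, 3.64 and 3.01 in MYC, VM and VIM tumours. Itih3 rose by 4.12, 3.81 and 4.32, and Ambp, whose product bikunin carries the heavy chains, by 4.13, 3.81 and 3.32. Of the 8 precursor genes, 1, 2 and 1 rose and 1 fell in each genotype. Of all genes tested, 18.7%, 17.3% and 18.9% rose and 18.5%, 22.5% and 20.7% fell. Gfpt2 rose in MYC (3.62) and VM tumours (2.54), Gfpt1 in VM (1.01) and Gnpnat1 in VIM tumours (1.50). The gene that fell was Ugdh, which makes UDP-glucuronic acid (-2.34, -1.72 and -1.49). It went from 2637 ± 323 units in normal kidney (SD, n = 5) to 548 ± 117, 821 ± 274 and 946 ± 179 in the tumours (SD, n = 3). Tmem2, a surface hyaluronidase, fell as well (-1.44, -2.70 and -1.68). Hapln1, the link protein that ties proteoglycans to hyaluronan, fell in all genotypes from 22.8 to 312 units in normal kidney, and was above the floor in 1 VM tumour (94.5 units) and 1 MYC tumour (5.65 units). In tissue 9930013L23Rik stood at 16.9 ± 4.01 units in MYC, 32.5 ± 27.2 in VM and 5.18 ± 2.53 in VIM tumours, against 2.48 ± 2.53 in normal kidney.

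Genes whose group means followed the members most closely were taken over the 10 group means of log2(units + 1) among 13353 genes, points that share scaling and the contrast between culture and tissue. Among those nearest to Hmmr was Sgol1, which guards sister chromatid cohesion in mitosis (Pearson r = 0.997). Nearest to Cd44 were Ercc1, Plaur and Csnk1e (0.991, 0.987 and 0.986), and nearest to Has2 were Prrx2, Tbx18 and Tnfrsf22 (0.958, 0.957 and 0.957). Hyal1 was followed most closely by the tubule marker Cdh16 (0.976), then Irgm2 and Wnk4 (0.962 and 0.959), and Vcan by Prph, Gm1943 and Nckap5l (0.963, 0.947 and 0.938). Akap10, Nat15 and Pomt2 were nearest to Hyal2 (0.962, 0.941 and 0.939), and Foxn3, Fam102b and Brwd1 to Has3 (0.878, 0.859 and 0.842).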

How the data were processed

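RNA from 38 libraries of mouse kidney tumour cell lines, tumours and normal kidney was read from 1 table of 21705 genes. The deposited values are a signal, not counts: the authors aligned paired-end reads of a stranded mRNA kit to mm9 with MapSplice, profiled alignments with Picard 1.64, sorted and indexed them with SAMtools, filtered them with UBU, estimated gene levels with RSEM, and set the upper quartile of every library to 1000 (998.1 to 1000 over genes above 0). Whether counting used strand is not given in the sources used here. Samples were grouped by their labels, and the line numbers of VM-3055 and VIM-3039 come from the study's methods. The members and lists were chosen with earlier results of these data known. All 9 members are named, and from each other list at most 3 genes per comparison, those of largest change among genes past the threshold with a mean of at least 50 units. Gusb, Esrp1, Stab1, Lyve1 and the genes named at the floor were chosen after their values were seen, as were further values of listed genes in other groups. Some genes that the rule names are not reported here.

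The commonest nonzero value under 3 units in a library stood for a single read. On that scale 94.1% to 95.9% of values under 20 reads were whole within 0.02. Depth was estimated from it, and it covers counting error only. Groups were fitted with limma 3.58.1 in R 4.3.3 (eBayes with trend, two-sided) on log2(value + 1), over the compared groups, for genes above 0 in at least 4 libraries (2 in tissue). Libraries of mouse 2983 were averaged before the tumour fits. Fold changes on this scale understate those of low genes. Differences in Dox response are line by Dox interactions. Gene positions come from GENCODE on NCBIM37 (mm9), and promoter windows from RefSeq on GRCm38.p6. The fits were tested on simulated data. Other settings were quantile normalization, TMM rescaling (trims of 30% and 5%), a pseudocount of 0.1 or of 10, a filter at a mean of 10 units or none, limma voom on recovered reads, all groups in one fit, a replicate block, separate libraries of one mouse, B6 or KT kidneys alone, lines without Dox, and each library left out. Figures used matplotlib 3.10.9 in Python 3.11.15.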

Additional observations from a re-analysis of the deposited data

Results flagged for a closer look

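Among 59 groups of 4 or 5 libraries examined for a member, 3 held a library far from the rest by Dixon's test, which chance gives in about 1 of 20 groups. They were Hyal2 in normal kidney replicate 5 (1046 units against 1303 to 1369 in the others), Cd44 in VM-3055 cells with Dox replicate 1 (3846 against 4002 to 4026 units) and Hmmr in MYC-2983 cells with Dox replicate 2 (2095 against 2195 to 2214 units).

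The response to Dox differed between lines past the threshold for 3 members. VIM-3039 cells differed from MYC-2983 cells by 1.62 in Has3 and 1.05 in Tnfaip6, and from VM-3055 cells by 1.25 in Has3, 1.20 in Hyal1 and 1.65 in Tnfaip6. In each case the fall with Dox seen in the other line was smaller or missing in VIM-3039 cells, and Tnfaip6 lay at 5.81 units or less in all 8 VIM-3039 libraries.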

How the results depend on the processing

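Of 274 alternative counts of members, 254 stayed within 1.5 times the reported count, and of 2322 alternative changes of single members 2213 kept their direction and side of the threshold, 83 lost and 20 gained the threshold and 6 changed sign. Members past the threshold with Dox in VM-3055 cells (5) became 3 with quantile normalization, 2 with a pseudocount of 10 and 3 with a mean of at least 10 units, which drops the faint Has2 and Tnfaip6. VM-3055 against MYC-2983 cells (5) became 3 and VIM-3039 against MYC-2983 cells (4) became 2 with quantile normalization. VM tumours against normal kidney (6) became 3 with B6 kidneys alone, which leaves fewer samples. For the Dox response, VM-3055 against MYC-2983 cells (0) became 1 with quantile normalization (Vcan) and 1 with a pseudocount of 10 (Has2), and ranged from 0 to 1 with a library left out (Tnfaip6 without VM-3055 with Dox replicate 4). VIM-3039 against MYC-2983 cells (2) became 1, Has3, with pseudocounts of 0.1 and 10, with limma voom and with all groups in one fit, and ranged from 1 to 2 with a library left out. VIM-3039 against VM-3055 cells (3) became 1 with a pseudocount of 10 (Has2) and ranged from 1 to 3 (Has3 alone without VIM-3039 with Dox replicate 1). Signs reversed under quantile normalization for Vcan with Dox in VM-3055 cells (0.15) and for Has3 against MYC-2983 cells in VM-3055 (0.38) and VIM-3039 (0.64), and without Dox for Hmmr in VIM-3039 against MYC-2983 cells (-0.39) and for Has3 (-0.89) and Hyal1 (-0.89) in VIM-3039 against VM-3055 cells. Except as given, the cause was not tested. Shifts of the median under TMM rescaling were taken over 10239 to 12119 genes per comparison, fewer than all genes tested. They exceeded 0.1 in size in all 3 Dox comparisons and in both comparisons with MYC-2983 cells (0.14 each). So did those in MYC tumours against normal kidney (-0.10) and in the VIM-3039 against VM-3055 response (-0.11).

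Deviations of same-numbered VM and VIM libraries from their group means correlated at -0.0886 to 0.0909 over 16 pairs, none over 0.1. No pairing by number was seen, but this cannot show that same-numbered cultures were handled apart. Under the replicate block, 5 and 4 members passed with Dox in VM-3055 and VIM-3039 cells, 3 between these lines (Tnfaip6 added, 1.08, adjusted p = 0.0167) and 3 for their response. Members under about 10 units rest on few reads.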
